A study of Mus musculus with 16 samples.

Results

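The 10 genes described here belong to the nephron beyond the proximal tubule and carry salt, calcium and water handling in the thick ascending limb of Henle's loop, the distal tubule and the collecting duct. They are Slc12a1, Wfdc15b, Ppp1r1a and Umod of the thick limb, Pvalb, Wnk4, Calb1, S100g and Slc8a1 of the distal convoluted and connecting tubule, and Aqp2 of the collecting duct. A gene was taken as measured where a probe's platform symbol named it, which held for 9 of the 10 genes, with 1 probe each. Calb1 had no probe under its symbol and has no value here. The genes were chosen by their segment and by their ratios between mutant and wild-type kidney, which were already known for these arrays, so those ratios are given as a description and without a test. They are 9 of 16140 rows of the table, of which 9846 are named genes.

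Kidneys came from 4 males carrying the label MFP2-/-, 15 weeks old. The RNA of each was hybridised against a single reference, pooled from 5 wt males of equal age of the Swiss strain SWR/Ola Hsd. MFP2 is the peroxisomal multifunctional protein 2, an enzyme of fatty acid beta-oxidation encoded by Hsd17b4. Each mouse was measured on 4 two-colour cDNA arrays, 2 with its RNA in the dye Cy5 and 2 with its RNA in Cy3, so there were 16 arrays. No source used here gives the strain background of the mutants, the extent of the deletion or whether the controls were littermates. The labels of mouse 1 carry 1 short number in the titles and another in the source name, while all its arrays share 1 animal identifier. A value is a log2 ratio of the mutant's to the pool's signal, so a value of 0 means equal signal, and n counts mice. Because the pool is a single control RNA, the spread between control animals is not in any value.

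Filtrate that leaves the proximal tubule passes the thick ascending limb, where Slc12a1 takes up sodium, potassium and chloride and so drives urine concentration and the uptake of calcium and magnesium between cells. The distal convoluted tubule takes up sodium chloride under the control of WNK kinases, and the connecting tubule moves calcium through its cells with calbindins as carriers and with the exchanger Slc8a1 at the exit. In the collecting duct, vasopressin brings the water channel Aqp2 to the cell surface.

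The sequence before the start of 4 of these genes is shown because it held a match to one of the motifs searched. The RefSeq table of build GRCm38.p6 held 9 promoters of 8 of the 10 genes. Capitals mark the motifs searched on both strands, TTAATNATT, the core of the full binding site of the HNF1 factors, which are active in kidney tubules, GTTAAT, a part of that site, which can overlap it, and TATAAA. TTAATNATT was picked after the sequences were seen, so its count among them is no finding.
Slc12a1, chr2:125152350-125152599, + strand: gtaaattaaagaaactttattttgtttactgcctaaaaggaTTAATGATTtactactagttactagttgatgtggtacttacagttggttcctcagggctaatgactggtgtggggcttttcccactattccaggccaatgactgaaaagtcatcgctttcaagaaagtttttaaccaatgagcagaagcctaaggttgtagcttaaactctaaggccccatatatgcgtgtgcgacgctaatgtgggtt
Wfdc15b, chr2:164221664-164221913, - strand: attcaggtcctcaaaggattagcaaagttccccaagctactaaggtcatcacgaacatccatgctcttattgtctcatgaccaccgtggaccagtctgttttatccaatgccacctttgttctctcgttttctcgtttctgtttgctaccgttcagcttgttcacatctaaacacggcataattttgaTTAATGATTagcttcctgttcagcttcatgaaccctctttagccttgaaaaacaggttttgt
S100g, chrX:162964600-162964849, - strand: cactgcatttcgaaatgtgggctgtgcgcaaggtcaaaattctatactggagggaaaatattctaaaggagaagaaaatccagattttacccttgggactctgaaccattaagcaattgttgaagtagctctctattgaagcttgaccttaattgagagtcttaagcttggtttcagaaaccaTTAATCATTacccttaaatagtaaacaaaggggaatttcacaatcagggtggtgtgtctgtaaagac
Umod, chr7:119479263-119479512, - strand: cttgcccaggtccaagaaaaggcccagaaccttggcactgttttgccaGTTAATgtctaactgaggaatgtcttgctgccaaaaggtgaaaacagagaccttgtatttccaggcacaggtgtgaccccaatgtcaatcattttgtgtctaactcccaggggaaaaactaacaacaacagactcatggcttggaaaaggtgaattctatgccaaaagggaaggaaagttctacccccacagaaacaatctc

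Slc12a1 held TTAATNATT once, starting at position -209 from the table's start, Wfdc15b once at -62 and S100g once at -67, and no other promoter of these genes held it. The promoters of Wnk4, Slc8a1, Pvalb and Aqp2 held none of the motifs, and the table had no entry for Ppp1r1a or Calb1. Over all 32851 promoters of 300 bases in the table, 1.47% held it. Umod held GTTAAT once, at -202, a motif found in 7.1% of all promoters. S100g held TATAAA at position 1, just after the bases printed, and 13.6% of all promoters held it. A match describes the letters in this window and is not evidence of binding.

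Arrays held 19737 to 20228 values each, with medians from -0.149 to 0.098, and each was centred on its median here. The log base and the direction, mutant over pool, were inferred and are not stated in the sources used here. Hsd17b4, the targeted gene, was read by 2 probes that disagreed, with means of -0.91 and 0.43, so the genotype was not checked by it, and its mean over both was -0.84, -0.34, 0.12 and 0.09 in mice 1 to 4. Since the values are ratios, the level of a segment's markers in the kidney is not shown, and fewer cells of a segment cannot be told apart from less RNA per cell.

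Of the 9 genes, 8 had a mean log2 ratio above 0, with a median of 0.35, against 50.1% of all rows and a median of 0.0004. Slc12a1, S100g, Aqp2, Wfdc15b and Ppp1r1a stood at 0.35 to 0.65, Wnk4, Slc8a1 and Pvalb at 0.11 to 0.18, and Umod at -0.15. Of the 36 values of a gene in a mouse, 31 were above 0, and 6 genes were above 0 in all 4 mice. Mouse 2 was highest in 5 of the 9 genes, beside 30.6% of all rows and 10 of 18 proximal tubule genes. The choice by mean ratio can favour genes high in 1 mouse, so nothing is read from that count. Mouse 3 was lowest in 5 of the 9 genes, for which no share over all rows was counted. Without mouse 2 the median over the genes was 0.22. As background, limma called 0 of 16140 rows for a mean ratio other than 0 after Benjamini-Hochberg adjustment (0%), none of them among the 9 genes. At an unadjusted p under 0.05 it had 1474 rows (9.13%) and 6 of the 9 genes, but these ratios chose the genes and nothing is read from that share.

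**Figure D1:**
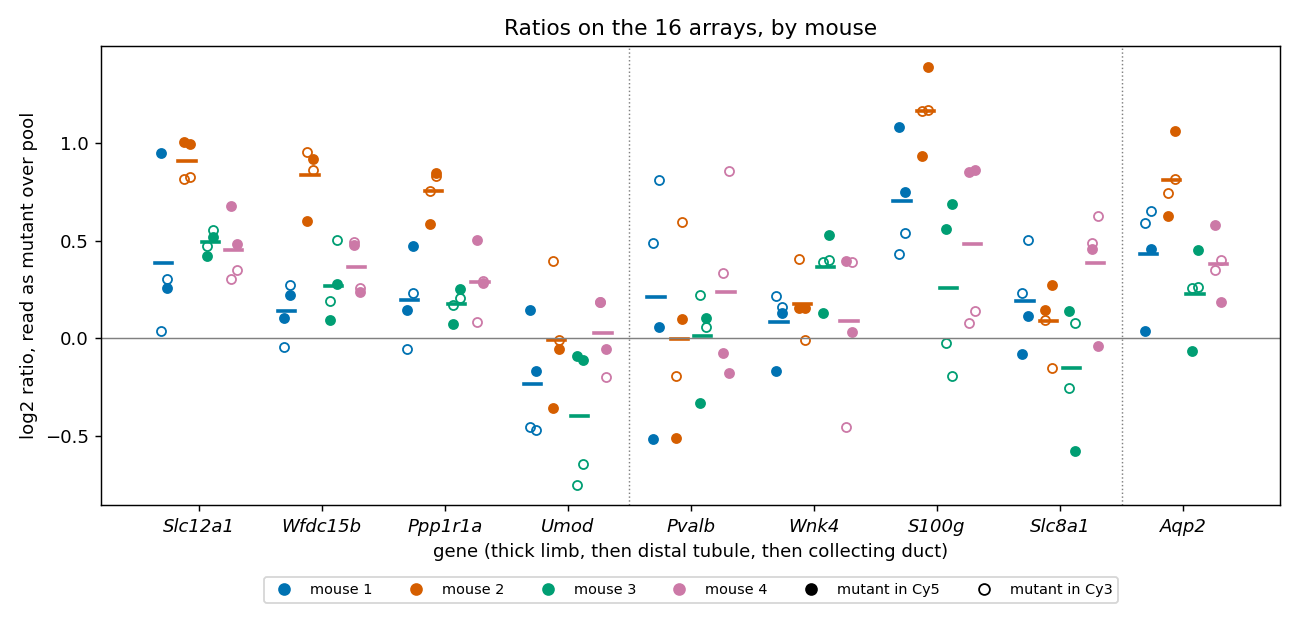
Log2 ratios of the 9 genes on the 16 arrays, with genes on the x axis, the ratio on the y axis, mice in colours, filled points for the mutant in Cy5, open points for the mutant in Cy3 and short bars for the mean of a mouse. Slc12a1 lay above 0 on all arrays, and the arrays of mouse 2 stood apart for Wfdc15b and Ppp1r1a. The filled points of S100g lay mostly above its open points and those of Pvalb mostly below its own, with overlap for both genes.

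Slc12a1, the sodium-potassium-chloride cotransporter that loop diuretics block, had values of 0.39, 0.91, 0.49 and 0.45 on the log2 scale in mice 1 to 4. Its mean was 0.56 ± 0.24 (SD, n = 4), a ratio of 1.47. Mouse 2 was the highest and the other 3 mice lay close together. Over the arrays the lowest value was 0.04, the median 0.50 and the highest 1.003, and it was the only one of the 9 genes above 0 on all 16 arrays. The arrays of mouse 2, from 0.81 to 1.003, overlapped those of the other mice, which reached 0.95 on an array of mouse 1.

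Wfdc15b, a small secreted protein with a whey acidic protein domain, had 0.14, 0.83, 0.27 and 0.37 in mice 1 to 4, with a mean of 0.40 ± 0.30 (SD, n = 4), a ratio of 1.32. Ppp1r1a, the inhibitor 1 of protein phosphatase 1, which acts when phosphorylated by the cAMP-dependent kinase, had 0.20, 0.75, 0.18 and 0.29, with a mean of 0.35 ± 0.27 (SD, n = 4), a ratio of 1.28. For both genes mouse 2 stood above the other mice. The arrays of mouse 2 ran from 0.60 to 0.96 for Wfdc15b and those of the other mice from -0.04 to 0.50. For Ppp1r1a they ran from 0.59 to 0.85 and from -0.06 to 0.50. The 4 arrays of mouse 2 thus lay above all 12 others for 2 of the 9 genes. They did so for 103 of the 14643 rows with a value on every array (0.703%), a comparison picked after the values were seen. Choosing genes by their mean ratio on these arrays can favour genes high in 1 mouse, so nothing is read from 2 of 9. Without mouse 2 the means were 0.26 for Wfdc15b and 0.22 for Ppp1r1a. Wfdc15b minus Ppp1r1a was -0.06, 0.08, 0.09 and 0.08 in mice 1 to 4. The mean ratios of the 2 genes thus lay within 0.1 of each other in every mouse. On single arrays they lay further apart, with differences from -0.25 to 0.41, above 0 on 11 arrays. The closeness therefore holds for the means of a mouse only, and it was not tested.

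Umod encodes uromodulin, the most abundant protein of normal urine, made in the thick limb. It was the 1 gene with a mean below 0, at -0.15 ± 0.20 (SD, n = 4), a ratio of 0.900, with -0.24, -0.01, -0.40 and 0.03 in mice 1 to 4. Mice 1 and 3 were low and mice 2 and 4 near 0, and without mouse 3 the mean was -0.07. It was above 0 on 4 of 16 arrays, from -0.75 to 0.40 with a median of -0.10. Slc12a1 minus Umod, both of the thick limb, was 0.62, 0.91, 0.89 and 0.42 in mice 1 to 4, with a mean of 0.71 ± 0.23 (SD, n = 4). Slc12a1 lay above Umod on all 16 arrays, by 0.11 to 1.36. That difference was picked for its size and has no test.

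Pvalb, the calcium-binding protein parvalbumin of the early distal convoluted tubule, had 0.21, -0.0015, 0.01 and 0.24 in mice 1 to 4, with a mean of 0.11 ± 0.13 (SD, n = 4). Its arrays ran from -0.51 to 0.86 with a median of 0.08, and 10 of 16 were above 0. Wnk4, a kinase that controls the sodium chloride cotransporter of this segment, had 0.09, 0.18, 0.36 and 0.09, with a mean of 0.18 ± 0.13 (SD, n = 4), and was above 0 on 13 of 16 arrays. Mouse 3 was the highest of the 4 for Wnk4 and mice 1 and 4 were highest for Pvalb. Wnk4, Pvalb and Slc12a1 did not pass limma's F-test between mice (adjusted p of 0.785, 0.867 and 0.276), so their orders of mice are not compared. Without mouse 3 the mean of Wnk4 was 0.12, and without mouse 4 that of Pvalb was 0.07.

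S100g, calbindin-D9k, a small calcium carrier that vitamin D induces, had the largest mean of the 9 genes, 0.65 ± 0.39 (SD, n = 4), a ratio of 1.57. It had 0.70, 1.16, 0.26 and 0.48 in mice 1 to 4, with mouse 2 highest and mouse 3 lowest. Over the arrays it ran from -0.19 to 1.39 with a median of 0.72, and 14 of 16 arrays were above 0. The 2 arrays below 0 were those of mouse 3 with the mutant in Cy3. Slc8a1, the sodium-calcium exchanger at the exit of calcium from the cell, had 0.19, 0.09, -0.15 and 0.38, with a mean of 0.13 ± 0.22 (SD, n = 4). Mouse 3 was the lowest for both calcium genes, but the highest was mouse 2 for S100g and mouse 4 for Slc8a1. The mean of Slc8a1 was 0.04 without mouse 4 and 0.22 without mouse 3.

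Aqp2, the water channel of principal cells, had 0.43, 0.81, 0.23 and 0.38 in mice 1 to 4, with a mean of 0.46 ± 0.25 (SD, n = 4), a ratio of 1.38. Mouse 2 was again highest and mouse 3 lowest. Its arrays ran from -0.06 to 1.06 with a median of 0.46, and 15 of 16 were above 0. The arrays of mouse 2, from 0.63 to 1.06, overlapped those of the other mice, which reached 0.65. Slc12a1 minus Aqp2 had a mean of 0.10 ± 0.13 (SD, n = 4), smaller than its spread over mice.

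Whether the 4 mice differed from one another was tested by an F-test in limma over the 16 arrays. None of the 9 genes passed after Benjamini-Hochberg adjustment, against 30 of 15856 rows (0.189%). The smallest limma adjusted p were 0.0818 for Wfdc15b, 0.0842 for S100g and 0.121 for Ppp1r1a, with ranges over the mice of 0.69, 0.91 and 0.58. At an unadjusted p under 0.05 there were 5 of the 9 genes, those 3 with Slc12a1 and Aqp2, against 11.2% of all rows. Those 5 genes were the ones highest in mouse 2 and also had the 5 largest means. Choosing genes by their mean ratio can favour genes high in 1 mouse, so nothing is read from 5 of 9. For Umod, Wnk4, Slc8a1 and Pvalb the limma adjusted p was 0.499 or more. Over the 13 other settings tried, no limma adjusted p of these genes passed. Those of Wfdc15b ran from 0.0748 to 0.992, the last with ratios read as Cy5 over Cy3. With arrays scaled to a common spread, the limma adjusted p were 0.279 for Wfdc15b, 0.285 for S100g and 0.378 for Ppp1r1a. On simulated data the same test found 3.5% of 200 rows moved by 0.6 in 1 mouse. These rows were drawn from all rows, so the test seldom calls differences of that size in such rows. The share was not measured for genes with repeat SDs as small as those of S100g, Wfdc15b and Ppp1r1a.

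**Figure D2:**
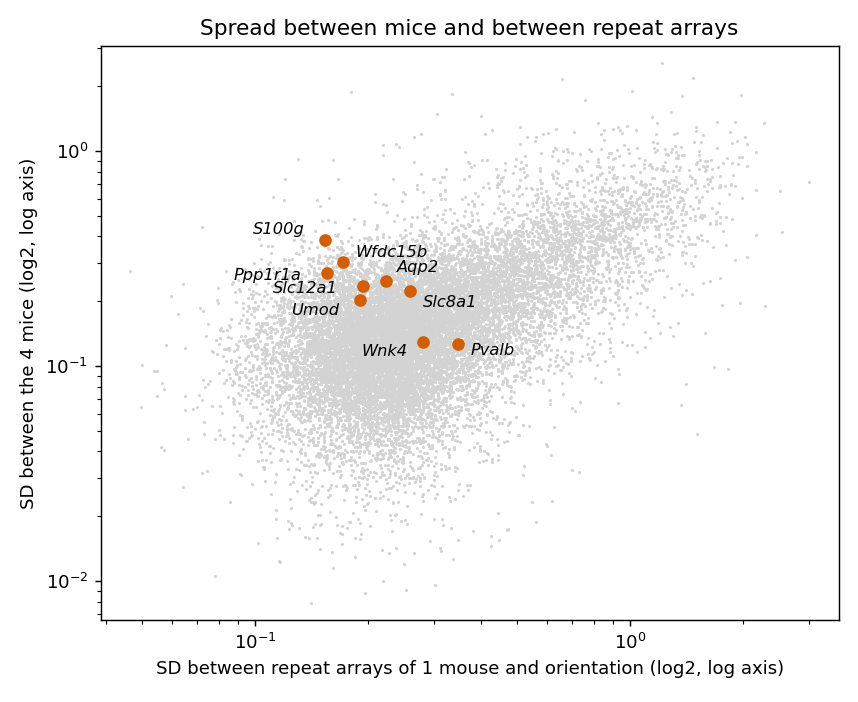
SD between the 4 mice (y) against the SD between repeat arrays of the same mouse and orientation (x), both of log2 ratios and on log axes, for 15855 rows in grey and the 9 genes in orange. S100g, Wfdc15b and Ppp1r1a had small repeat SDs and large SDs between mice, whereas Pvalb and Wnk4 had larger repeat SDs and smaller SDs between mice.

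The precision of the arrays differed among the genes. The SD between repeat arrays of 1 mouse and orientation was 0.15 for S100g, 0.16 for Ppp1r1a, 0.17 for Wfdc15b, 0.19 for Umod and 0.19 for Slc12a1. It was 0.22 for Aqp2, 0.26 for Slc8a1, 0.28 for Wnk4 and 0.35 for Pvalb. Among the 14643 rows with all values, S100g lay at percentile 12.7 and Pvalb at percentile 75.1.

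Dye orientation was tested in the same fit, and 2 of the 9 genes passed after limma's Benjamini-Hochberg adjustment, against 1332 of 15856 rows (8.4%). The spread in that fit is between arrays, so each SE given here is over arrays and does not measure the spread over mice. S100g was higher with the mutant in Cy5 by 0.48 ± 0.12 (SE; limma adjusted p = 0.0303). Its orientation values were 0.92, 1.16, 0.62 and 0.86 with the mutant in Cy5 and 0.49, 1.17, -0.11 and 0.11 with the mutant in Cy3, in mice 1 to 4. Mouse 2 had the same ratio in both orientations, and the other 3 mice were higher in Cy5. Pvalb went the opposite way, lower with the mutant in Cy5 by 0.56, which the fit gives as -0.56 ± 0.16 (SE; limma adjusted p = 0.0444). The Pvalb means of 2 arrays lay between -0.23 and -0.11 in all 4 mice with the mutant in Cy5. With the mutant in Cy3 they lay between 0.14 and 0.65, so the sign of these means followed the orientation in 4 of 4 mice. Single arrays crossed 0, up to 0.10 in Cy5 and down to -0.19 in Cy3. Both calls were lost without mouse 1, 3 or 4, with limma adjusted p of 0.138, 0.145 and 0.187 for S100g and 0.208, 0.103 and 0.193 for Pvalb. The differences in those 3 settings were 0.49, 0.39 and 0.39 for S100g and -0.46, -0.67 and -0.51 for Pvalb. Without mouse 2 both genes passed, with limma adjusted p of 0.00595 for S100g and 0.0271 for Pvalb. The Pvalb call was also lost without centring of arrays, at a limma adjusted p of 0.0605.

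The other 7 genes had a limma adjusted p of 0.198 or more for orientation. At an unadjusted p under 0.05 the same 2 genes were found, against 29.9% of all rows. Slc12a1 had a mean of 0.66 with the mutant in Cy5 and 0.46 in Cy3, and Aqp2 had 0.42 and 0.51. Wfdc15b and Ppp1r1a had 0.37 and 0.40 in Cy5, and 0.44 and 0.31 in Cy3. A test of whether differences between mice depended on the orientation, added after the values of S100g were seen, called none of the 9 genes with limma's F-test, against 23 rows (0.145%). At an unadjusted p under 0.05 it had 2 genes, Umod (p = 0.0251) and S100g (p = 0.0455), against 9.08% of all rows. For Umod, the values with the mutant in Cy3 were -0.46, 0.19, -0.69 and -0.0040 in mice 1 to 4, and with the mutant in Cy5 they were -0.01, -0.20, -0.10 and 0.06. The low values of mice 1 and 3 in Umod thus came mostly from arrays of 1 orientation.

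**Figure D3:**
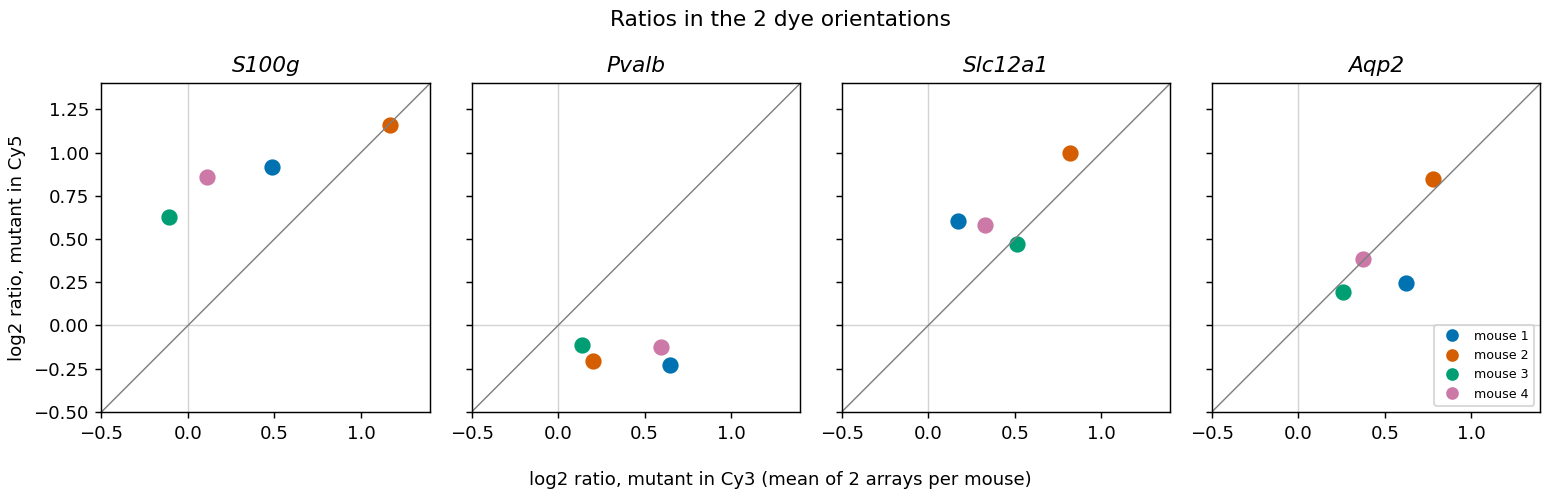
Log2 ratio with the mutant in Cy5 (y) against that with the mutant in Cy3 (x), each the mean of 2 arrays per mouse, for S100g, Pvalb, Slc12a1 and Aqp2, with the line of equal values. Mice 1, 3 and 4 lie above the line for S100g and all 4 mice below it for Pvalb, whereas the mice lie near it for Aqp2 apart from mouse 1.

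Other genes of these segments and pathways were read from lists, some of whose genes were known from earlier results on these arrays. Outside the 9 genes, 38 genes of the thick limb, distal tubule and collecting duct lists were measured. Of these 27 were above 0, with a median of 0.09, and by mouse the median was 0.08, 0.13, 0.09 and 0.09. They were highest in mouse 2 for 14 of 38 (36.8%), where 30.6% of all rows were. None passed limma's threshold for the mean ratio, and 8 of 38 had a limma unadjusted p under 0.05, beside 9.13% of all rows. The 24 partner genes fixed for naming included 15 with a value, 9 of them above 0.

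All counts of lists here leave out the 9 genes, which their ratios had chosen. In the thick limb list 10 of 12 other genes were above 0, with a median of 0.19. Bsnd, the subunit of the chloride channels at the exit of the thick limb cell, averaged 0.07 ± 0.09 (SD, n = 4), and Fxyd2, a regulator of the sodium pump, had 0.09 ± 0.18. Cldn10, a claudin of the sodium pathway between cells, had 0.03 ± 0.03. Casr, the calcium-sensing receptor that restrains this segment's transport, had -0.06 ± 0.16 but -0.72 with the mutant in Cy5 and 0.60 in Cy3, a difference that passed limma's test for orientation (adjusted p = 0.013). Egf, measured in 3 mice, ran from -3.21 to 2.98 over arrays with a repeat SD of 1.99, far above the other values here. Mrps6 was the 1 gene of the list past limma's F-test between mice (adjusted p = 0.0191). Mrps6 had -0.17, 0.69, 0.04 and 0.18 in mice 1 to 4, with mouse 2 highest, and its probes had means of 0.09 and 0.28. Whether its ratio came from thick limb cells was not tested.

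In the distal list 5 of 7 other genes were above 0, with a median of 0.03. Trpm6, the magnesium channel of the distal convoluted tubule, had 0.08 ± 0.09 (SD, n = 4), and Atp2b1, a calcium pump, had 0.03 ± 0.14 over 5 probes from -0.12 to 0.28. Klk1, the kallikrein of the connecting tubule, had -0.09, 0.36, -0.07 and -0.04 in mice 1 to 4, and its 2 probes had means of 0.19 and -0.06. Among other calcium and magnesium genes 11 of 12 were above 0, with a median of 0.12. Vdr, the vitamin D receptor, had -0.31, 0.46, 0.14 and 0.16, with mouse 2 highest, and did not pass between mice (limma adjusted p = 0.204). Its 2 probes had means of 0.23 and -0.0017.

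Of the WNK and SPAK list 7 of 10 other genes were above 0, with a median of 0.09. Wnk1, a kinase upstream of SPAK, had -0.03, 0.69, 0.08 and 0.23 in mice 1 to 4, and both of its probes had means above 0, 0.21 and 0.28. The limma adjusted p of Wnk1 between mice was 0.136. Stk39, which encodes SPAK, had 0.01 ± 0.08 (SD, n = 4), and Nedd4l, a ubiquitin ligase that acts on the sodium channel, had -0.10 ± 0.04. Wnk4 and Wnk1 had different mice highest, but neither passed the test between mice.

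In the principal cell list 4 of 8 other genes were above 0, with a median of 0.05. Aqp4, a water channel of the basolateral side, had -0.24, -0.50, 0.43 and 0.14 in mice 1 to 4, with mouse 2 lowest, and a repeat SD of 0.67. Scnn1a, a subunit of the epithelial sodium channel, had a mean of -0.00028 ± 0.17 (SD, n = 4), and its 2 probes had -0.18 and 0.17. Ptger1, a receptor of prostaglandin E2, passed for orientation (-0.36, limma adjusted p = 0.0307). Among 12 other vasopressin and water genes 11 were above 0, with a median of 0.07, and 3 passed for orientation, beside 8.4% of all rows. These were the water channel Aqp11 (-1.09), the vesicle protein Vamp2 (0.51) and the syntaxin Stx4a (-0.40), with limma adjusted p of 0.0388, 0.0229 and 0.0417. Of the 11 intercalated cell genes 8 were above 0, with a median of 0.18, and none passed between mice or orientations.

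**Figure D4:**
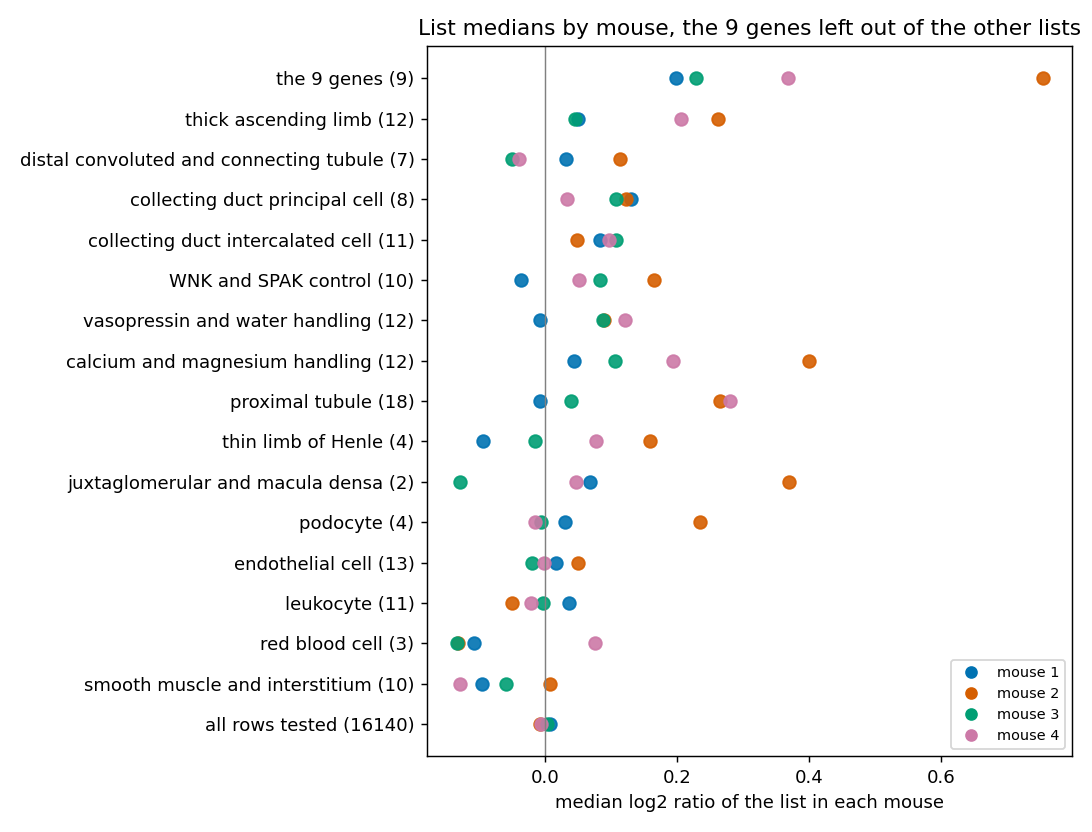
Median log2 ratio (x) of each list (y, with the number of genes or rows measured) in mice 1 to 4, shown in colours, with the 9 genes left out of the other lists. The 9 genes run from 0.20 in mouse 1 to 0.75 in mouse 2; in mouse 2 the calcium list is at 0.40, the juxtaglomerular list (2 genes) at 0.37, the thick limb and proximal tubule lists at 0.26, the podocyte list (4 genes) at 0.23, the endothelial list at 0.05 and the leukocyte list at -0.05.

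Markers of other cell types had 1 gene past the test between mice, in the proximal tubule list. Of 18 proximal tubule genes 15 were above 0, with a median of 0.16 and medians of -0.01, 0.26, 0.04 and 0.28 in mice 1 to 4. Mouse 2 and mouse 4 had the highest medians there. Miox, the inositol oxygenase of the proximal tubule, passed limma's F-test between mice (adjusted p = 0.0332), with -0.25, 1.25, 0.67 and 0.98. The transporters Slc13a3, Slc7a7 and Slc7a8, passed for orientation with differences of 0.50, 0.37 and 0.54 (limma adjusted p of 0.0493, 0.0451 and 0.0239). The thin limb list (4 genes) had a median of 0.02, the juxtaglomerular list (2 genes) 0.09 and the podocyte list (4 genes) 0.11. Leukocyte genes (11) had a median of -0.03, endothelial genes (13) 0.04, smooth muscle and interstitium genes (10) -0.05 and red blood cell genes (3) -0.07. C1qb, Cd52 and Tyrobp of the leukocyte list and Dcn of the interstitium passed for orientation, with limma adjusted p of 0.0141, 0.0184, 0.0141 and 0.0442. Over all rows 8.4% passed for orientation. The part of other cell types in the ratios of the 9 genes was not tested.

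Genes whose ratios lay closest to 3 of these genes were found by the root mean square difference over 8 values, 4 mice in 2 orientations. Only named genes with all 8 values were compared, and only where their range over mice was at least that of the gene divided by 2. For Slc12a1 the closest of 6163 such genes were Inmt, a methyltransferase (difference 0.18, mean 0.54), H3f3b, a histone H3.3 gene (0.19, mean 0.48), and Praf2 (0.21, mean 0.39). For S100g the closest of 2866 were Atp1b1, the beta subunit of the sodium pump (0.28, mean 0.54), Slc16a9, a transporter (0.33, mean 0.56), and Slc12a1 itself (0.33). Atp1b1 had 0.24, 0.94, 0.40 and 0.58 in mice 1 to 4 and belongs to the pump that powers uptake through Slc12a1. For Umod the closest of 7231 were Jph3 (0.14, mean -0.16), Ppp4r2 (0.15, mean -0.11) and Nek8 (0.16, mean -0.07). All of them were chosen by likeness, so their closeness is a description.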

How the data were processed

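The authors deposited 1 ratio per probe and array, read here as a log2 ratio, for 20355 probes. Per the labels, total RNA was reverse transcribed and indirectly labelled; no source used here gives the normalisation or software. Probes were named by platform symbol, updated by gene identifier through RefSeq (13994 of 14030 with 1 symbol; 6320 had none and 5 several). Values with an absolute size over 10 (510 spots, 0 on the genes described) were set as missing, and arrays were centred on their medians. Probes needed both orientations in 3 mice, or in all 4 for fits on arrays, and were averaged per symbol. A value per mouse is the mean of both orientation means. limma 3.58.1 in R 4.3.3 was fitted across all rows, two-sided, with Benjamini-Hochberg adjustment at 0.05. In the fits on arrays (mouse plus orientation), the spread is that between arrays, and the number of arrays limits the precision.

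The genes and lists were chosen with earlier results of these data known. Genes named beside the 9 were the fixed partners, list genes called between mice or orientations, and the 3 closest to Slc12a1, S100g and Umod. Alternatives covered centring, scaling, missing spots, averaging, ratio direction, single orientations or repeats, filters, priors, a random block (statmod 1.5.0) and leaving out mice. Planned protein motifs were not run, since no protein sequences were used here. On simulated data of 15856 rows, 50.5% of 200 rows with an orientation effect of 0.6 were recovered. For a mean shift of 0.6 it was 75.5% of 200, and for the dependence on orientation 71% at 2.4. The simulated noise was that between repeat arrays, with no added spread between mice. The 75.5% thus does not hold for mice that differ from one another.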

Additional observations from a re-analysis of the deposited data

How the results depend on the processing

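Read as Cy5 over Cy3, 4 of the 9 genes were above 0, their median was -0.0089, limma called 11 rows for the mean ratio and 1 gene for dependence on orientation. Under that reading the orientation term is the mean ratio that chose the genes, it called 5 of them, and Pvalb reversed (limma adjusted p = 0.505). For the mean ratio limma called 3 rows with the mutant in Cy5 only, 1 with it in Cy3 only and 221 with all arrays and the mouse as a random block, which counts arrays of 1 mouse almost as separate samples. Without centring 1 gene was called for orientation (Pvalb was lost), and when each mouse was left out 0 to 2 were. Over all rows, 30 were called between mice, and 16 with arrays scaled, 48 with probes on their own and 2 read as Cy5 over Cy3; for orientation 1332 were called, and 2740 without centring and 260 read as Cy5 over Cy3. Under all other settings the counts of the 9 genes stayed within 1.5 times the reported ones, and the number of genes above 0 was 7 or 8. Pvalb was below 0 with the mutant in Cy5 only (-0.17) and on repeat 1 only (-0.07); the other 8 genes kept their sign under every setting except, for 5 of them, the reading as Cy5 over Cy3. Signal over background is unknown, since no intensities were used here.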
